A study of Rattus norvegicus with 16 samples.

Results

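T cells carry an antigen receptor at their surface that signals only through the CD3 chains attached to it. The gamma, delta and epsilon chains, encoded by Cd3g, Cd3d and Cd3e, end in tyrosine motifs that the kinase Lck phosphorylates once the receptor has bound antigen. Lck is brought there by the co-receptors: CD4 marks helper T cells and binds MHC class II, and CD8, a pair of alpha and beta chains from Cd8a and Cd8b, marks cytotoxic T cells and binds MHC class I. CD28 gives the second, costimulatory signal, the interleukin-7 receptor chain from Il7r keeps resting T cells alive, and Tcf7 encodes a transcription factor of naive and memory T cells. In the rat, CD4 is also carried by monocytes, macrophages and microglia, and CD8 alpha by natural killer (NK) cells, so neither gene alone marks T cells there.

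These 10 genes were taken by symbol from rat RNA-seq tables of white blood cells (WBC) and of the CA1 field of the hippocampus. Of the 10, 9 had a row in each table, among 24779 rows in WBC and 26031 in CA1. No row carried Tcf7 as its only symbol, and rows naming more than 1 gene were not searched for it. The row of Il7r was listed at 0 in all 16 libraries with the authors' status OK, so Tcf7 and Il7r were not analysed further here. Blood T cells usually express both genes. Whether rows without a gene name (7054 in WBC and 8207 in CA1) hold their reads was not tested, so the listed 0 and the missing symbol are not read as absence. With a mean of at least 1 FPKM over the 8 libraries of a tissue set as the condition for testing, 8 members were tested in WBC and 2, Cd3e and Cd4, in CA1.

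The animals were male Sprague-Dawley rats, and the 4 groups of 4 libraries were WBC after traumatic brain injury (TBI), WBC after sham surgery, CA1 after TBI and CA1 after sham surgery. TBI was given by fluid percussion, a pressure pulse on the brain's covering. All rats were tested for learning, and tissue was taken 1 week after surgery. The labels number the libraries within a group but do not tie a number to a rat, so the p-values measure the spread between these libraries only.

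FPKM counts fragments per length of transcript and per size of library, so levels of different genes can be compared within a table. Fragment counts are not given. Depth relative to sham 1 of the same tissue was read from the spacing of the smallest values. It was 1.17 to 1.38 in WBC TBI 2 to 4 and 0.798 to 1.11 in the WBC sham libraries, while WBC TBI 1 gave no clear spacing. In the 8 CA1 libraries it was 0.850 to 1.00. In WBC depth thus ran with injury, and its part in the differences was not tested. WBC TBI 1 also stood farthest from the rest, with a mean Pearson's r of 0.930 to the other 7 libraries against 0.946 to 0.956 for those 7. Markers of other blood cells were present in the WBC libraries. Of 11 erythroid marker rows in WBC, 9 had status OK in every library and were summed. Their sum ran from 4855 to 11736 FPKM in TBI WBC, with TBI 1 lowest, and from 11798 to 18680 FPKM in sham WBC. The summed platelet markers (6 rows) ran from 1994 to 5805 FPKM in TBI WBC and from 6323 to 8709 FPKM in sham WBC. In such mixed samples fewer cells of a type and less RNA per cell cannot be told apart.

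The promoters of the CD3 genes are shown first because these genes lie side by side and their transcripts moved together across the blood libraries, and that of Cd8a because its level followed theirs less closely. RefSeq (build GRCr8, a later build than the rn5 of the tables) held promoter entries for 8 of the 10 members. The 250 bases before each start are given 5′ to 3′ on the gene's strand: Cd3d at chr8:54185269-54185518 (plus strand), Cd3g at chr8:54183919-54184168 (minus), Cd3e at chr8:54211771-54212020 (minus) and Cd8a at chr4:104923866-104924115 (plus). Cd3g and Cd3d point away from each other, with 1600 bases between their starts in GRCr8. Capitals mark matches, on either strand, to the ETS core GGAAGT, the RUNX core TGTGGT, the TCF/LEF core CTTTGA, the GATA core AGATAA and the E-box CAGGTG.
Cd3d: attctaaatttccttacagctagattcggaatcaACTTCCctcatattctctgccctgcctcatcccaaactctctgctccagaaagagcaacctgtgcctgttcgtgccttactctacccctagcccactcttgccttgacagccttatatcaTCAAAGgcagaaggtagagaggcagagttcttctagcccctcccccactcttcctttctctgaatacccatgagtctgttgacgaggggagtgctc
Cd3g: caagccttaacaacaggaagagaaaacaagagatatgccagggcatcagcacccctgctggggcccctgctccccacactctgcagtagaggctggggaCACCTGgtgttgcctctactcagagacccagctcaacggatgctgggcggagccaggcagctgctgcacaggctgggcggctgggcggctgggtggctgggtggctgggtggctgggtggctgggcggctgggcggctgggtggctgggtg
Cd3e: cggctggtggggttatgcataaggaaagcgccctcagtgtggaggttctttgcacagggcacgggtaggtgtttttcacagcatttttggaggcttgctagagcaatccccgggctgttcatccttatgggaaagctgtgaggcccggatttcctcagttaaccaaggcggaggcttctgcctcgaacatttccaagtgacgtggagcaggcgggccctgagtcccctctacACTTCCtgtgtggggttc
Cd8a: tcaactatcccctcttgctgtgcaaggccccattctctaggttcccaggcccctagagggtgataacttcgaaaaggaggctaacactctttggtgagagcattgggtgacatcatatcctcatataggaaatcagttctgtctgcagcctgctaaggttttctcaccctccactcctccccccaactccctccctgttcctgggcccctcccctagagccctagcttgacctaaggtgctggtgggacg

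The marked letters differ between the CD3 promoters. Cd3d held an ETS and a TCF/LEF match, Cd3g an E-box match and Cd3e an ETS match, and none of the 5 motifs stood in the Cd8a window. Among 33469 rat promoter windows of the same length, the ETS core was found in 19.2%, the E-box in 15.9%, the RUNX core in 14.5%, the TCF/LEF core in 13.9% and the GATA core in 10.3%. A match describes these letters and is not a binding site. No 2 matches share a base in the windows shown.

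In blood, all of the CD3 genes were strongly expressed in every library and the TBI and sham values overlapped. Cd3g, the gamma chain, had 183, 237, 282 and 313 FPKM in TBI 1 to 4, against 192, 209, 265 and 243 FPKM in sham 1 to 4. TBI 1 was the lowest of all 8 libraries and TBI 4 the highest, so the sham values lay inside the TBI range. Cd3d, the delta chain, had 94.96, 125, 144 and 152 FPKM in TBI 1 to 4, against 117, 105, 162 and 128 FPKM in sham 1 to 4. Cd3e, the epsilon chain, had 101, 120, 125 and 160 FPKM in TBI 1 to 4, against 124, 103, 151 and 121 FPKM in sham 1 to 4. For these chains too the groups overlapped, with TBI 1 lowest. The mean difference between TBI and sham on the log2(FPKM + 0.5) scale was 0.14 ± 0.18 (SE) for Cd3g, 0.00 ± 0.18 for Cd3d and 0.01 ± 0.16 for Cd3e (limma adjusted p = 0.713, 0.991 and 0.974). The 95% intervals of the fold, TBI over sham, were 0.825 to 1.48 for Cd3g, 0.753 to 1.34 for Cd3d and 0.780 to 1.30 for Cd3e.

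Within a library the CD3 chains kept similar proportions. Cd3g was 1.89 to 2.06 times Cd3d in TBI libraries and 1.63 to 1.99 times in sham libraries. Cd3e was 0.872 to 1.06 times Cd3d in TBI libraries and 0.929 to 1.06 times in sham libraries. These ratios of per-length levels do not change when a library is multiplied by a single factor, but quantile normalization would change them.

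**Figure D1:**
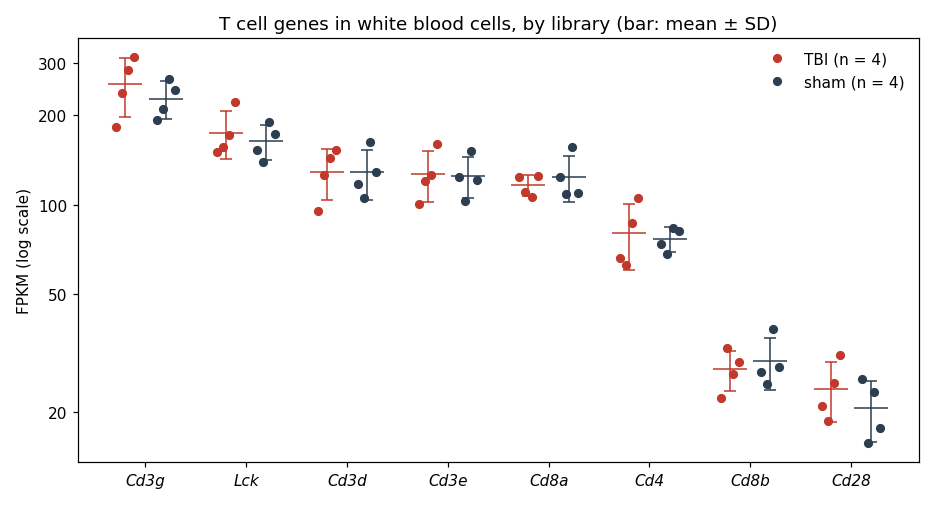
FPKM (log axis) of the 8 tested T cell genes in white blood cells, in order of mean level. Each point is a library, 4 after TBI (left of each pair) and 4 after sham surgery, with bars for the mean and SD; the 2 groups overlap for all 8 genes.

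The co-receptor genes of helper and cytotoxic T cells also overlapped between the groups. Cd4 had 66.0, 62.4, 86.7 and 105 FPKM in TBI 1 to 4, against 73.5, 67.9, 83.6 and 81.5 FPKM in sham 1 to 4. The TBI libraries split into a low pair (TBI 1 and 2) and a high pair (TBI 3 and 4) around the sham range, so the SD was 19.98 FPKM in TBI and 7.24 FPKM in sham. Cd8a had 124, 110, 106 and 125 FPKM in TBI 1 to 4, against 123, 108, 156 and 109 FPKM in sham 1 to 4. Sham 3 lay above the other 7 libraries, which kept within 106 to 125 FPKM. Cd8b had 22.4, 32.8, 26.9 and 29.4 FPKM in TBI 1 to 4, against 27.4, 24.8, 38.2 and 28.5 FPKM in sham 1 to 4. Again sham 3 was highest, and TBI 1 was lowest. The log2 differences were 0.04 ± 0.17 for Cd4, -0.09 ± 0.13 for Cd8a and -0.09 ± 0.16 for Cd8b (SE; limma adjusted p = 0.929, 0.762 and 0.808). The 95% intervals of the fold were 0.784 to 1.34 for Cd4, 0.767 to 1.16 for Cd8a and 0.735 to 1.21 for Cd8b.

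The balance of the co-receptors was read from the ratio of Cd8a to Cd4 in each library. It was 1.87, 1.76, 1.22 and 1.18 in TBI 1 to 4, against 1.68, 1.60, 1.86 and 1.34 in sham 1 to 4. TBI 3 and 4 had the lowest ratios of all 8 libraries, and TBI 1 the highest, 1.87 beside 1.86 in sham 3. On the log2 scale the mean was 0.56 ± 0.34 in TBI and 0.68 ± 0.20 in sham (SD, n = 4 each), a difference of -0.12 (exact permutation test, 2-sided, p = 0.600, where 0.0286 is the smallest p that 4 against 4 can give). Cd8b stood at 0.181, 0.299, 0.254 and 0.236 of the Cd8a level in TBI 1 to 4, against 0.222, 0.229, 0.246 and 0.261 in sham 1 to 4. The TBI libraries thus held both the lowest and the highest share of the beta chain, around a narrow sham range.

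Lck and Cd28, which act downstream of and beside the receptor, also had overlapping groups. Lck had 150, 157, 171 and 221 FPKM in TBI 1 to 4, against 152, 139, 189 and 172 FPKM in sham 1 to 4. TBI 4 was the highest library, and the other 3 TBI libraries lay within the sham range. Cd28 had 21.0, 18.7, 25.1 and 31.1 FPKM in TBI 1 to 4, against 25.9, 15.8, 23.4 and 17.7 FPKM in sham 1 to 4. Here too TBI 4 was highest, and sham 2 was lowest. The log2 differences were 0.09 ± 0.15 for Lck and 0.21 ± 0.20 for Cd28 (SE; limma adjusted p = 0.782 and 0.600), with fold intervals of 0.841 to 1.35 and 0.842 to 1.59.

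None of the 8 tested members passed at an adjusted p of 0.05 in WBC, where 0% of the 13413 rows tested did. With the values as deposited, none reached an unadjusted p under 0.05 either, against 20.3% of all rows. None had groups that did not overlap, against 14.2% of all rows (5.61% higher and 8.63% lower in TBI). The median log2 difference over the 8 was 0.02, beside 0.00 over all rows. The direction of the smallest differences rested on single libraries. Without TBI 4, the values for Cd4, Lck, Cd3d and Cd3e were -0.11, -0.03, -0.08 and -0.10. Without TBI 1, which stood apart, the same genes had 0.12, 0.16, 0.14 and 0.12. The sign also turned without TBI 3 or sham 2 for Cd4 (-0.012 and -0.019), without TBI 3, sham 1 or sham 2 for Cd3d (-0.054, -0.033 and -0.083), without sham 2 for Cd3e (-0.074), without TBI 1 or sham 3 for Cd8b (0.013 and 0.040) and without sham 3 for Cd8a (0.028). Cd3g and Cd28 stayed positive, at 0.032 (without TBI 4) to 0.29 (without TBI 1) for Cd3g and 0.077 (without TBI 4) to 0.32 (without sham 1) for Cd28. After quantile normalization all 8 differences were positive, from 0.02 for Cd8b to 0.53 for Cd3g, and none passed (limma adjusted p = 0.134 to 0.961). Cd3g then had 0.53 ± 0.14 and Lck 0.43 ± 0.14 (SE), so the size of both differences, also beside their SE, depended on the scaling. The unadjusted result above holds for the values as deposited only.

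**Figure D2:**
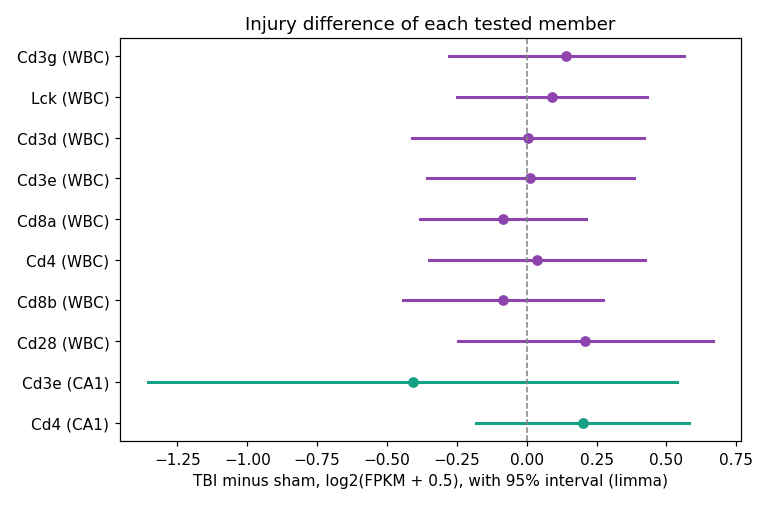
Difference between TBI and sham on the log2(FPKM + 0.5) scale for the members tested in WBC (8) and in CA1 (2). Points are limma estimates from the values as deposited and lines their 95% intervals, and every interval includes 0.

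The members lay on the same side of the sham mean in some libraries and on both sides in others. Compared with the sham mean, all 8 members were above it in TBI 4 (median 0.41 on the log2 scale) and in sham 3 (median 0.26), and all 8 were below it in sham 2 (median -0.23). In TBI 1, 6 of 8 were below it (median -0.25), the exceptions being Cd8a and Cd28. TBI 2 had 2 of 8 above it and TBI 3 had 6 of 8, while sham 1 and sham 4 were near an even split, with 3 and 4 of 8 above. Each member's highest library was 1.47 to 1.98 times its lowest.

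**Figure D3:**
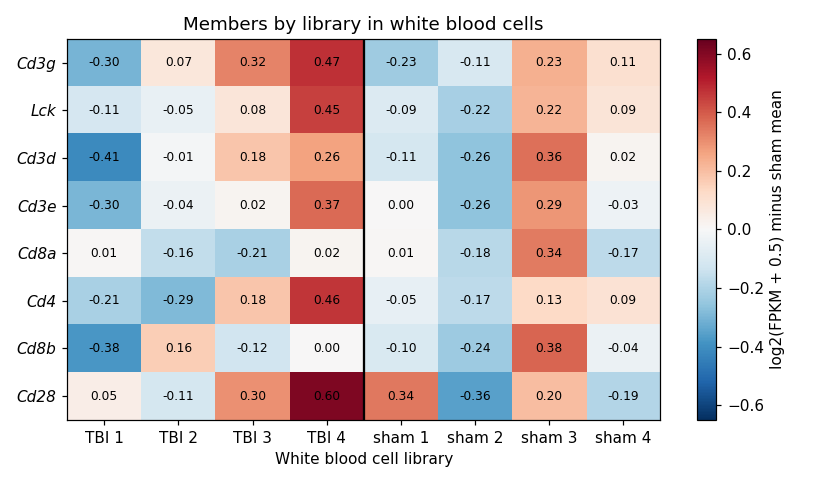
Each cell gives the log2(FPKM + 0.5) value of a member in a WBC library minus that gene's mean over the 4 sham libraries, TBI libraries left and sham libraries right. TBI 4 and sham 3 are above the sham mean in all 8 genes and sham 2 is below it in all 8.

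Across the 8 WBC libraries Pearson's r between pairs of members had a median of 0.71 over 28 pairs. Among Cd3d, Cd3e, Cd3g, Lck and Cd4 the 10 pairs had r of 0.76 to 0.92 (Spearman's rho 0.76 to 0.93), and 0.72 to 0.94 without TBI 1. Cd3d and Cd3e had the highest r of these, 0.92 (rho 0.90), and r was 0.86 without TBI 1 and sham 3, the libraries farthest out in Cd3d. The 7 pairs with Cd8a had r of 0.09 (Cd3g) to 0.54 (Cd8b), and 0.18 to 0.75 without TBI 1. The libraries share their scaling and cell mix, so these are descriptions without a p. The pair of Cd8a and Cd8b rests on sham 3 and TBI 3, without which r was -0.28.

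The order of levels in WBC was Cd3g (mean 241 FPKM), Lck (169), Cd3d (129), Cd3e (126), Cd8a (120), Cd4 (78.4), Cd8b (28.8) and Cd28 (22.3). The steps not named next held in all 8 libraries. Cd3d exceeded Cd3e in 5 of 8 and Cd3e exceeded Cd8a in 5 of 8, so these neighbours did not differ beyond the spread, and Cd8b exceeded Cd28 in 7 of 8. Cd3g was higher than 97.4% of the rows tested in WBC, and Cd28 than 74.6%.

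The 10 named genes whose WBC pattern was most like the mean standardised pattern of the 8 members, out of 9003 rows with a single symbol, had r of 0.95 to 0.98 over the 8 libraries. In falling order of r they were App (amyloid precursor protein), Tox (a transcription factor of T cell development), Akap1 (a mitochondrial kinase anchor), Cdc26 (a subunit of the anaphase-promoting complex), Pgrmc1 (a heme-binding membrane protein), Skap1 (an adaptor of T cell receptor signalling), St8sia1 (the ganglioside GD3 synthase), Hpcal1 (a neuronal calcium sensor family member), Fam189b and Camk4 (a calmodulin-dependent kinase). Without TBI 1 their r was 0.94 to 0.98. Skap1 had 54.0, 66.4, 82.2 and 100 FPKM in TBI 1 to 4, against 70.8, 63.9, 90.8 and 74.1 FPKM in sham 1 to 4. Its lowest library was TBI 1 and its highest TBI 4. The 10 genes were chosen for following the members over the same libraries, so their high r and similar order come with the choice. App had 15.1, 17.1, 21.6 and 25.3 FPKM in TBI 1 to 4, against 17.7, 15.2, 24.3 and 19.3 FPKM in sham 1 to 4.

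Other genes of T cells gave no adjusted call in WBC either. Of 24 listed genes of T cell receptor signalling, 20 were tested and 0 passed; 3 were higher and 1 lower at an unadjusted p under 0.05, where 7.82% of all rows were higher and 12.5% lower. The lower one, Grap2, an adaptor of T cells that platelets also use, averaged 198 ± 67.3 FPKM in TBI and 339 ± 68.3 FPKM in sham (SD, n = 4 each), without overlap (log2 -0.83, limma adjusted p = 0.178). Vav1, an exchange factor behind the receptor, averaged 35.6 ± 1.89 FPKM in TBI and 31.4 ± 1.25 FPKM in sham, without overlap (log2 0.18, adjusted p = 0.192 by limma). Cblb, a ubiquitin ligase that restrains activation, averaged 18.5 ± 0.449 and 16.2 ± 1.60 FPKM in TBI and sham. The list's median log2 difference was 0.06.

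Of 15 surface and costimulatory genes 11 were tested, 0 passed at either threshold, and the median was 0.18. Cd226, an adhesion receptor of T cells, NK cells and platelets, averaged 109 ± 45.0 FPKM in TBI and 156 ± 2.32 FPKM in sham, without overlap (log2 -0.62, limma adjusted p = 0.278). Cd6, a scavenger receptor of T cells, averaged 50.8 ± 14.0 FPKM in TBI and 39.0 ± 4.998 FPKM in sham, and the inhibitory receptor Ctla4 averaged 13.3 ± 0.5002 FPKM in TBI and 11.6 ± 2.06 FPKM in sham. Of 18 T cell transcription factors 16 were tested (median 0.05) and 0 passed. At an unadjusted p under 0.05, 1 was higher, where 7.82% of all rows were. Tbx21, the T-bet factor of cytotoxic and type 1 helper cells and of NK cells, averaged 17.4 ± 8.17 FPKM in TBI and 9.98 ± 1.39 FPKM in sham (log2 0.67, limma adjusted p = 0.240). Bcl11b, which holds T cell identity, averaged 18.8 ± 2.55 FPKM in TBI and 15.6 ± 3.51 FPKM in sham, and Zbtb7b, which directs the CD4 fate, 23.3 ± 1.96 FPKM in TBI and 20.9 ± 2.01 FPKM in sham. Of 15 homing and cytokine receptors 13 were tested (median 0.10) and 0 passed. Here too 1 was higher at an unadjusted p under 0.05, beside the same 7.82% of all rows. Il2ra, the interleukin-2 receptor alpha chain, averaged 6.52 ± 0.964 FPKM in TBI and 5.26 ± 0.616 FPKM in sham (log2 0.28, limma adjusted p = 0.246), and Il6r and Il2rb had log2 differences of 0.15 and 0.27.

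Markers of the other blood cells had 0 genes past limma's adjusted threshold as well. All 8 tested NK markers had positive differences (median 0.42), 4 of them at an unadjusted p under 0.05. Of all rows, 7.82% were higher at that threshold. Gzmb averaged 4.55 ± 0.344 FPKM in TBI and 2.56 ± 0.928 FPKM in sham. Gzma and Prf1 had log2 differences of 0.51 and 0.41. The summed NK markers were 450, 256, 253 and 356 FPKM in TBI 1 to 4, against 218 to 283 FPKM in sham. TBI 2 and TBI 3 thus lay within the sham range. All 9 tested B cell markers had negative differences (median -0.18, 0 at an unadjusted p under 0.05), with Fcrla at -0.38, Bank1 at -0.27 and Cd79b at -0.31. Their sum was 958, 1009, 779 and 549 FPKM in TBI 1 to 4, against 852 to 1104 FPKM in sham. Only TBI 3 and TBI 4 were below the sham range. Monocyte markers had a median of -0.03 over 8 genes (Itgam 0.35, Csf1r -0.14, Fcgr1a -0.11) and neutrophil markers -0.23 over 8 (S100a8 -0.50, S100a9 -0.52, Camp 0.51), both with 0 at an unadjusted p under 0.05. Erythroid markers had a median of -0.99 over 9 genes (Trim58 -1.24, Gypc -1.03, Ca2 -1.08) and platelet markers -1.01 over 6 (Gp5 -0.91, Ppbp -2.03, Gp9 -1.36). At an unadjusted p under 0.05, 8 erythroid and 5 platelet markers were lower, where 12.5% of all rows were. The part of these cell types in the levels of the T cell genes was not tested.

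**Figure D4:**
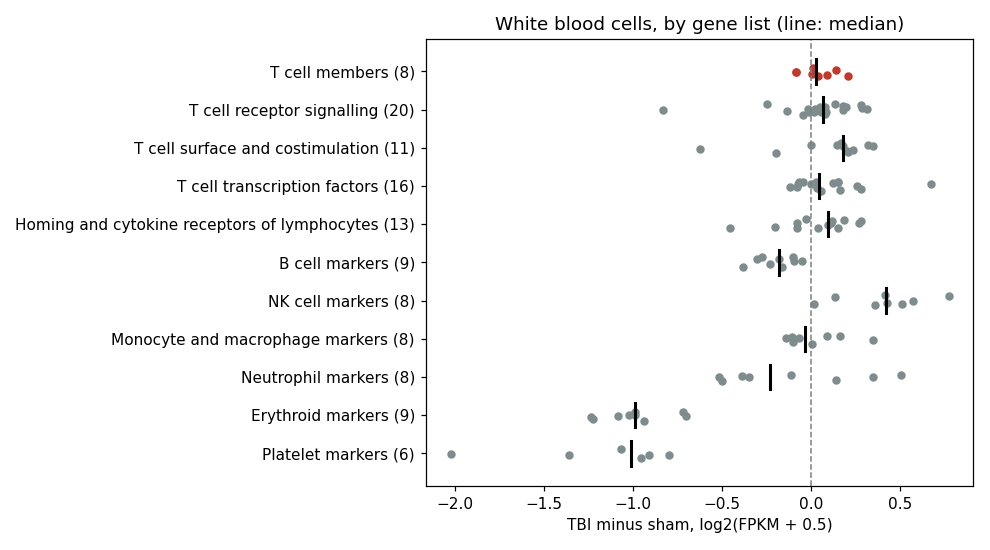
TBI minus sham difference on the log2(FPKM + 0.5) scale of every tested gene of each list in white blood cells, one point a gene, with the number tested in brackets and a line at the median. The 8 members lie between -0.09 and 0.21, the NK markers to the right of 0 and the erythroid and platelet markers to the left.

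In CA1 most T cell genes were at or close to 0, and the exceptions were Cd3e, Cd4 and Lck. Cd3g had 0.0614, 0.270, 0.0595 and 0.114 FPKM in TBI 1 to 4, against 0.161, 0, 0.0634 and 0 FPKM in sham 1 to 4. Cd3d had 0, 0.123, 0.0544 and 0.0522 FPKM in TBI 1 to 4, against 0.0489, 0.110, 0.0578 and 0 FPKM in sham 1 to 4. After scaling by relative depth, the Cd3d values fell within 0.054 of whole multiples of a single step. The multiples were 0, 2, 1 and 1 in TBI 1 to 4 against 1, 2, 1 and 0 in sham 1 to 4. The step was sought only near the smallest value above 0, so these are fragments only if that value is 1 fragment. Smaller steps were not tried. The same reading of Cd3g, within 0.14 of whole multiples, gave 1, 4, 1 and 2 in TBI and 3, 0, 1 and 0 in sham. Cd8a was listed at 0 in 2 of 8 libraries, with its highest values at 0.173 FPKM in TBI and 0.101 FPKM in sham. Cd28 was at 0 in 4 of 8 (up to 0.122 FPKM in TBI and 0.0874 FPKM in sham), and Cd8b in 5 of 8 (up to 0.0557 FPKM in TBI and 0.0644 FPKM in sham). With no minimum level limma gave adjusted p of 0.904 to 0.996 in CA1, and no difference in these 5 genes passed. Markers of B cells were low too, with 9 genes summing to 0.308 to 0.881 FPKM in TBI and 0.467 to 0.575 FPKM in sham.

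Cd3e stood far above its partner chains in CA1. It had 5.79, 1.66, 1.82 and 4.32 FPKM in TBI 1 to 4, against 2.07, 6.40, 4.94 and 4.38 FPKM in sham 1 to 4. Each group held low and high libraries, and the highest was 3.85 times the lowest. The log2 difference was -0.41 ± 0.41 (SE; limma adjusted p = 0.8997), with a fold interval of 0.391 to 1.45. Leaving out 1 library moved it between -0.18 (without TBI 2) and -0.69 (without sham 1), and it was -0.69 without TBI 1, -0.21 without TBI 3 and -0.22 without sham 2. Cd3e was 24.8% of the summed level of the CD3 chains in TBI WBC and 26.0% in sham WBC, but 94.9% in TBI CA1 and 97.6% in sham CA1. The ratio of Cd3e to Cd3d plus Cd3g was 0.340 over the 8 WBC libraries and 26.7 over the 8 CA1 libraries. Since both are ratios of per-length levels within a table, a single scaling factor for a whole table would not change them. The source of the Cd3e reads in CA1 was not tested.

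Cd4 in CA1 had 1.66, 2.91, 2.69 and 3.16 FPKM in TBI 1 to 4, against 2.28, 2.42, 1.87 and 2.08 FPKM in sham 1 to 4. TBI 1 was the lowest library and the other 3 TBI libraries were above all sham libraries. The difference was 0.20 ± 0.17 on the log2 scale (SE; limma adjusted p = 0.891), and 0.37 without TBI 1, with a fold interval of 0.881 to 1.497 over all libraries. Cd8a was 0.0339 of Cd4 in TBI CA1 and 0.0249 in sham CA1, but 1.45 times Cd4 in TBI WBC and 1.62 times in sham WBC. Lck had 0.639, 0.964, 1.05 and 0.781 FPKM in TBI 1 to 4, against 0.866, 0.711, 0.863 and 0.873 FPKM in sham 1 to 4, just under the condition of 1 FPKM. Its TBI values lay on both sides of the sham values.

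**Figure D5:**
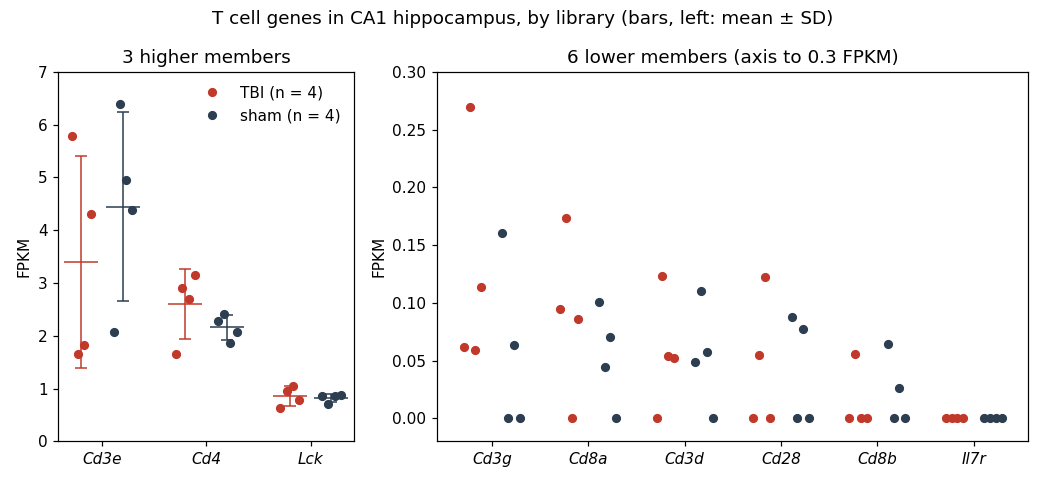
FPKM of the 9 members with a row in CA1, by library, TBI left of sham in each pair (4 libraries each), with bars for the mean and SD at left; the axis at left runs to 7 FPKM and that at right to 0.3 FPKM. Cd3e spans 1.66 to 6.40 FPKM while Cd3d and Cd3g stay under 0.3 FPKM.

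Because rat microglia can carry CD4, the Cd4 level in CA1 was set beside 12 microglia markers across the 8 CA1 libraries. Pearson's r ran from -0.17 for Cx3cr1 to 0.85 for the complement gene C1qa (Spearman's rho -0.12 and 0.81). The exact permutation p of C1qa was 0.00945 for r and 0.0218 for rho, and 0.113 and 0.173 after Benjamini-Hochberg adjustment over the 12 relations, so the relation did not pass. The permutations mixed TBI and sham libraries, which also share scaling and cell mix. Cd4 and C1qa both had positive TBI differences (log2 0.20 and 0.19), so r and p also hold the group difference. Its part in r was not tested. Without TBI 1 and TBI 4, the libraries farthest out in Cd4, the r of C1qa was 0.72. C1qc and C1qb had r of 0.79 and 0.73, and the homeostatic markers P2ry12 and Tmem119 0.21 and 0.42. Without the same libraries r was 0.61 for C1qc and 0.64 for C1qb, but -0.38 for P2ry12, -0.11 for Tmem119 and -0.38 for Csf1r, which had 0.53 over all 8. The microglia list had 12 of 12 genes tested, a median TBI difference of 0.01 and 0 passing by limma. At an unadjusted p under 0.05, 1 gene, C1qb, was higher, where 2.54% of all CA1 rows were. C1qb and C1qc had log2 differences of 0.20 and 0.22 and Cx3cr1 -0.18.

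Neither tested member passed in CA1 at an adjusted p of 0.05, where 0.00683% of 14637 rows did, nor at an unadjusted p under 0.05 (5.14% of rows, 2.54% higher and 2.6% lower), nor by groups that did not overlap (2.88%, 1.28% higher and 1.6% lower). Of the other T cell lists, receptor signalling had 7 genes tested in CA1, transcription factors 11 and homing receptors 5, and 0 passed by limma, with 1 homing receptor at an unadjusted p under 0.05. That one was S1pr1, the sphingosine 1-phosphate receptor that lets lymphocytes leave lymph nodes and that brain cells also express, at 53.6 ± 2.59 FPKM in TBI and 62.9 ± 5.79 FPKM in sham without overlap (log2 -0.22, limma adjusted p = 0.891). The genes of these T cell lists named here for CA1 were chosen after their values were seen. The signalling genes present there, such as the kinase Fyn (60.3 ± 4.70 FPKM in TBI and 66.1 ± 6.91 FPKM in sham), phospholipase Plcg1 (14.3 ± 0.576 and 15.4 ± 1.09 FPKM in TBI and sham) and the adaptor Nck1, are expressed far beyond T cells. The 15 surface and costimulatory genes had 0 above 1 FPKM in CA1, their sum being 1.16 to 1.91 FPKM in TBI and 1.44 to 1.81 FPKM in sham. Among transcription factors, Ikzf1, Ets1 and Tox had log2 differences of 0.19, -0.10 and 0.25. The CA1 libraries carried neuron markers, with summed markers (6 genes) of 5917 to 6410 FPKM in TBI CA1 and 5827 to 7615 FPKM in sham CA1. Rbfox3, Wfs1 and Camk2a had log2 differences of -0.18, -0.33 and -0.19 there, Aqp4, Gfap and Slc1a3 of astrocytes -0.37, -0.22 and -0.18, and Mbp, Mobp and Mog of oligodendrocytes 0.26, 0.23 and 0.07.

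Whether the injury difference differed between blood and CA1 could be tested for Cd3e and Cd4. The fit took all 16 libraries as independent, as the labels do not tell whether blood and CA1 came from the same rats. It used 1 spread per gene for both tissues, though the SE of the Cd3e difference was 0.16 in WBC and 0.41 in CA1. The difference in WBC minus that in CA1 was 0.42 ± 0.46 for Cd3e and -0.16 ± 0.24 for Cd4 (SE; limma adjusted p = 0.672 and 0.764). Leaving out 1 library, the Cd3e value ran from 0.19 (without CA1 TBI 2) to 0.71 (without CA1 sham 1), and the Cd4 value turned to 0.084 under quantile normalization. Of 7570 genes tested for this term, 31 passed (0.41%) and 19.7% were at an unadjusted p under 0.05. The number passing ran from 6 (without CA1 TBI 4) to 221 (without WBC TBI 3) when 1 library was left out.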

How the data were processed

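Poly-A selected RNA was copied with random hexamers for sequencing, per the labels' protocols. The deposited values are FPKM, 1 table per tissue, normalized separately. TopHat, TopHat2, Bowtie, Bowtie2, Cufflinks, Cuffdiff and build rn5 are named in the submitters' processing notes; their versions, the annotation and the scaling of libraries are not stated there. Each FPKM carries the authors' status. The tables' FPI columns are the TBI libraries.

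Where rows share a symbol, the one with the highest mean was used. Rows with a mean of at least 1 FPKM and every status OK were fitted as log2(FPKM + 0.5) with limma 3.58.1 (trend, 2-sided, Benjamini-Hochberg over all rows, threshold 0.05; R 4.3.3), per tissue, and for 7570 genes in both as an interaction. Fold changes on that scale understate changes of low genes. The fits were tested on simulated data with independent noise in each library, unlike real libraries that share scaling and cell mix. In WBC 22.4% of simulated log2 changes of 0.5, 61.2% of changes of 1 and 90.9% of changes of 2 passed. In CA1 56.7% and 85.1% of changes of 0.5 and 1 passed. These rates hold for the simulated noise and are not the power of the real fits. In the real WBC libraries Ppbp, at a log2 difference of -2.03, did not pass (limma adjusted p = 0.127). Other values came from Python 3.11.15 (scipy 1.17.1, numpy 2.4.6) and figures from matplotlib 3.10.9. Without counts no counting interval is given.

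The members and lists were chosen with earlier results of these data known. Named genes are the members, the 3 of each list with the smallest p and the 10 most like the members. Same-numbered libraries did not deviate together in every pair, so samples were not paired. Alternatives were pseudocounts of 0.1 and 1, no minimum or 5 FPKM, median-ratio and quantile scaling, rows of every status, the replicate number as a block, and leaving out each library.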

Additional observations from a re-analysis of the deposited data

Results flagged for a closer look

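Among 42 groups of 4 libraries looked at over the members and their ratios, 2 had a library far from the other 3. Chance gives about 1 in 20 such groups, a rate that does not apply where 3 of 4 values are 0. Cd8b in the CA1 TBI libraries was at 0.0557 FPKM in TBI 2 and at 0 in the other 3, so its gap fills the range by construction and says nothing of that library. Lck in the CA1 sham libraries was at 0.711 FPKM in sham 2, against 0.863 to 0.873 FPKM in the other 3 sham libraries.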

How the results depend on the processing

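No member passed in any of 200 values over 12 member results under the alternatives (lowest adjusted p 0.134), and 184 kept their direction. Under quantile normalization, Cd8a and Cd8b in WBC were 0.21 and 0.019, and the Cd4 difference in WBC minus that in CA1 was 0.084; the cause was not tested. Leaving out 1 library, the WBC range was -0.083 to 0.14 for Cd3d, -0.10 to 0.12 for Cd3e, -0.11 to 0.14 for Cd4, -0.14 to 0.028 for Cd8a, -0.17 to 0.040 for Cd8b and -0.028 to 0.16 for Lck. The Cd8a to Cd4 log2 ratio ranged from -0.24 to -0.01. Rows of every status gave 2 WBC calls, and leaving out a library 0 to 4 (4 without TBI 2). In CA1 quantile normalization gave 2 calls, and leaving out a library 1 to 2. The 31 interaction calls became 13 with no minimum level, 214 with the replicate block, and 6 (without CA1 TBI 4) to 221 (without WBC TBI 3) when a library was left out. With the replicate block the WBC and CA1 calls stayed at 0 and 1 and the ratio at -0.12 (sign-flip exact permutation p = 0.625). Same-numbered libraries had deviations correlated at 0.15, 0.00, 0.02 and -0.01 in WBC and 0.21, 0.02, 0.05 and 0.24 in CA1; 1 of 4 and 2 of 4 TBI libraries were closest to their own number. Of WBC rows at an unadjusted p under 0.05, 38.5% were higher as deposited and 56.5% after quantile normalization. In CA1 the Cd3d and Cd3g values read as at most 2 and 4 steps a library, with the smallest value above 0 taken as about 1 step. The other low members were not read this way.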
